A study of Mus musculus with 12 samples.

Results

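Motile cilium genes were followed across 12 RNA-seq libraries of astrocytes isolated from the brains of Cd38+/+, Cd38+/- and Cd38-/- mice. The group held 83 of the 20614 genes measured. Its members carry a name that starts with Dnah, Dnai, Dnal, Cfap, Rsph, Tekt, Drc or Spag, or are 1 of 8 further genes (Foxj1, Ccdc153, Tmem212, Dynlrb2, Mlf1, Fam183b, Riiad1 and 1700024G13Rik), and their mean over the 12 libraries was at least 1 TPM (expression per transcript length, as transcripts out of 1000000 in the library). Of 89 genes with such names, 6 were under that level: Spag11a, Spag11b, Rsph6a, Dnah17, Spag6 and Cfap97d1. Members were thus chosen by their names and their mean TPM over all libraries, and that mean is given as a description. The members just inside the limit were Dnah8 at 1.12 TPM, Dnah7c at 3.73 TPM and Tekt5 at 4.76 TPM, and those just outside were Cfap97d1 at 0.225 TPM, Spag6 at 0.104 TPM and Dnah17 at 0.0367 TPM.

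The libraries came from male mice bred on C57BL/6J and aged 12 to 14 months (mean 13.5), 3 Cd38+/+, 3 Cd38+/- and 6 Cd38-/-. The mutant allele is carried in every cell of the body and disrupts exons 2 and 3 of Cd38, which codes for an enzyme that consumes NAD, so the design compares 1 or 2 lost copies with none lost. Striatum, thalamus and substantia nigra, together called midbrain, were dissected and dissociated with papain. Beads removed endothelial cells, myelin and CD11b-bearing microglia, and astrocytes were then collected by their surface antigen ACSA-2. No source states whether each library is 1 animal, so p-values measure the spread between these libraries. The Cd38 transcript followed the labels: it lay between 105 and 149 TPM in the Cd38+/+ libraries, between 90.4 and 90.8 TPM in the heterozygotes, and between 8.54 and 21.9 TPM in the Cd38-/- libraries.

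Motile cilia are the beating hairs of ependymal cells, which line the brain ventricles, and tufts of them stand on the choroid plexus. Their core is a ring of doublet microtubules around a central pair. Outer and inner dynein arms power the sliding of the doublets, radial spokes and the nexin-dynein regulatory complex control it, and tektins lie inside the doublets. Foxj1 and the RFX factors drive the whole set of genes in multiciliated cells. Astrocytes are known for a single primary cilium, which shares the transport machinery of motile cilia and lacks their dynein arms.

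All 12 astrocyte markers were present, with a summed level of 11998 to 20330 TPM per library, and motile cilium genes were present beside them. The 83 genes together took 0.590 to 1.15% of the TPM of a Cd38+/+ library, 0.633 to 0.887% of a Cd38+/- library and 0.818 to 1.31% of a Cd38-/- library. In a bulk library, fewer cells of a type and less RNA per cell cannot be told apart, and a TPM is a share, so a gene can gain share where others lose it. Several libraries stood apart. Of the 13652 genes with a mean of at least 1 TPM, the Cd38+/+ libraries listed 785 to 1070 at 0 against 11 to 26 in the others. Cd38+/- library 1 carried 7670 TPM of choroid plexus markers against 138 to 2101 TPM elsewhere, and Cd38-/- library 3 had the highest oligodendrocyte markers, 17831 TPM.

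RFX factors bind the X-box, a pair of inverted repeats, and the RefSeq table for GRCm38.p6 gave the 250 bases before the start of 68 of the 83 genes. The search used GTNNCC followed by GNAAC after 1 to 4 bases of any kind, on both strands, and the same palindromic stretch can be found on both. A gene counted if any of its starts had a match. It was present before 18 of the 68 genes (26.5%), against 6.12% of the 10852 matched genes with a mean of at least 1 TPM and 5.04% of all 27025 genes in the table. Of the other motile cilium genes listed further below, 34.6% held it, of primary cilium genes 15.6%, and of the 9 matched astrocyte markers 0. The forkhead sequence GTAAACA, which Foxj1 can bind, stood before 4 of the 68 (5.88%), against 2.74% of genes with a mean of at least 1 TPM and 3.54% of all genes in the table. A match is a run of letters, not a bound site. The 8 members of highest mean level among those with an X-box are printed because they show the motif at several parts of the axoneme, with the motif in capitals, 5′ to 3′ on the gene's strand, and with the position of the 30 bases shown:
Ccdc153, chr9:44240535-44240564, + strand: caacgtgcaGTATCCAGAAACccaacatcc
Dynlrb2, chr8:116504956-116504985, + strand: cctgcctgGTTGCCTAGCAACgggggaagc
Fam183b, chr11:58801961-58801990, - strand: caagaggaacatccGTTGCCTGGAAACtgt
Cfap45, chr1:172521100-172521129, + strand: ctagttcttggGTTGCTATGGTAACgcgtc
Cfap298, chr16:90934896-90934925, - strand: tttgactGTTGCCCCTGGCAACagccactt
Dnaic1, chr4:41569764-41569793, + strand: ggtgcctgtcgGTTGCTGGGTAACcgcgtc
Cfap206, chr4:34730208-34730237, - strand: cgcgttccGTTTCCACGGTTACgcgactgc
Dnaic2, chr11:114727378-114727407, + strand: cggccaggGTTGCTAGGCAACtggtaaact

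Cfap298 held a further match farther upstream. The motif of Fam183b ended 4 bases before the RefSeq start and that of Dnaic1 7 bases before it, while that of Ccdc153 lay 122 to 133 bases before it. The remaining 10 genes with a match were Tekt2, Tekt4, Cfap44, Cfap58, Cfap99, Spag5, Spag16, Spag17, Rsph14 and Dnah9. Starts differ between annotations. By GENCODE vM21, which gave the gene positions, the printed windows of Cfap45 and Cfap298 lie inside the gene. So do the motifs of Dnaic1, Tekt4 and Cfap99, and that of Dynlrb2 spans the start.

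The members ranged from Ccdc153, a protein of the ciliary axoneme, at a mean of 1090 TPM to Dnah8 at 1.12 TPM. After Ccdc153 came Tmem212, a membrane protein of ependymal cells, at 940 TPM, Dynlrb2, a dynein light chain, at 661 TPM and Fam183b, at 461 TPM. Rsph1, a radial spoke head protein, followed at 407 TPM. These 5 genes all have short transcripts. TPM is per length, but the libraries still differed by transcript length, as given below, which limits the comparison with longer genes. The 14 dynein heavy chains (Dnah), with transcripts of 12.0 kb and more, summed to 101 to 332 TPM per library, which was 1.31 to 2.53% of the TPM of the group.

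The plot of levels by genotype gives the 12 libraries for 12 of the genes. Ccdc153 was at 663, 724 and 1517 TPM in Cd38+/+, at 895, 725 and 759 TPM in Cd38+/- and at 938 to 1493 TPM (median 1338) in Cd38-/- libraries. Every Cd38-/- library lay above every Cd38+/- library, and Cd38+/+ library 3 was the highest of all 12. Tmem212 likewise lay above every Cd38+/- library in all Cd38-/- libraries, with 602, 828 and 1090 TPM in Cd38+/+, 713, 629 and 682 TPM in Cd38+/- and 805 to 1289 TPM (median 1183) in Cd38-/-. Foxj1, the transcription factor, was at 69.9, 110 and 201 TPM in Cd38+/+, at 163, 87.5 and 145 TPM in Cd38+/- and at 111 to 234 TPM (median 155) in Cd38-/-. The 3 genotypes overlapped for Foxj1.

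**Figure D1:**
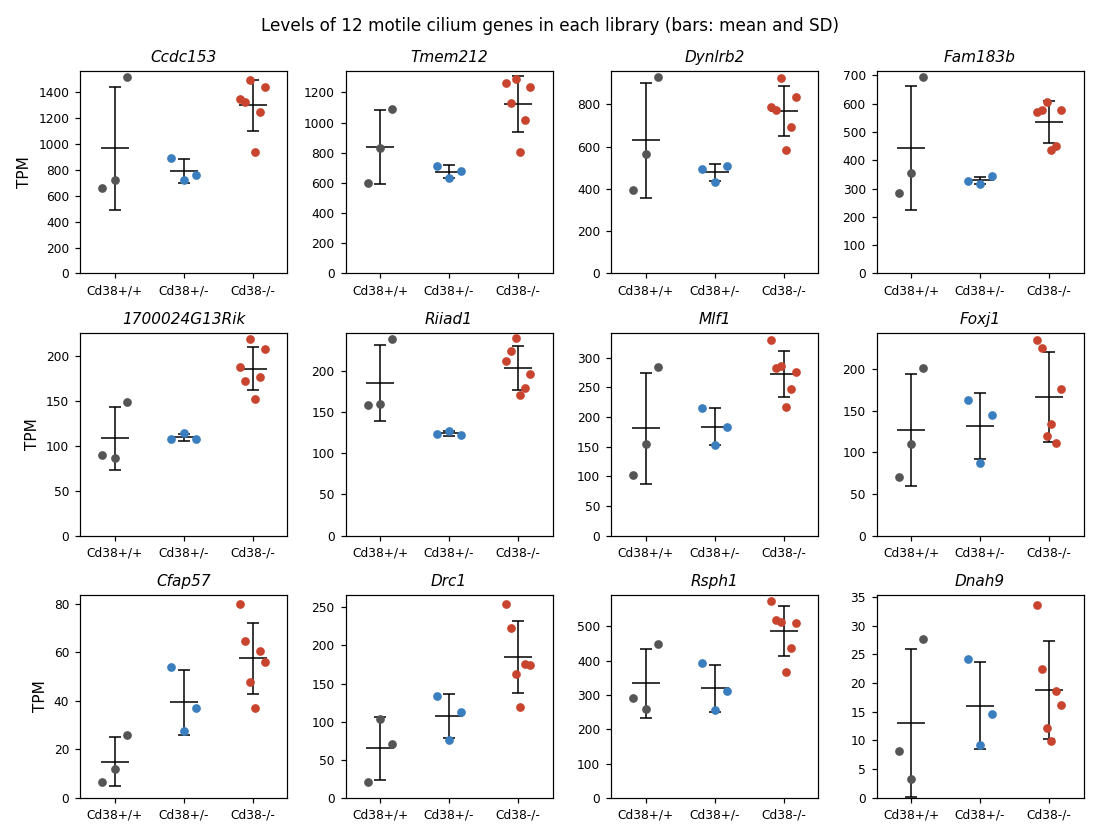
TPM of 12 motile cilium genes (linear axes from 0) by genotype, 1 point per library, with the mean and SD as black bars (n = 3, 3 and 6). For the first 7 genes all 6 Cd38-/- points lie above the 3 Cd38+/- points, while Foxj1, Cfap57, Drc1, Rsph1 and Dnah9 overlap, and the Cd38+/+ points spread widely.

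The first comparison, Cd38-/- against Cd38+/-, asks what the loss of the second copy adds. Of the 83 genes 79 had a log2 fold change above 0 and the median was 0.48 on the log2(TPM + 1) scale, where the median of all 13652 genes tested was -0.02. No member passed the threshold (limma, a Storey q under 0.05 together with a difference of 1.2-fold or more), where the background was 0.0220% of genes, 0.00732% higher and 0.0146% lower. At an unadjusted limma p under 0.05 there were 37 members (44.6%), all higher in Cd38-/-, against a background of 5.72% of genes higher and 10.1% in either direction. With Benjamini-Hochberg adjustment 0 members passed as well. For 13 members (15.7%) no Cd38-/- library overlapped a Cd38+/- library, each time with Cd38-/- higher, against a background of 2.65% higher, 2.56% lower and 5.21% in either direction. The 4 members with a log2 fold change below 0 were Spag9, Spag5, Tekt5 and Dnah7b.

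Of the 13, 7 were the genes named singly beside Foxj1. 1700024G13Rik was at 107, 114 and 108 TPM in Cd38+/- and at 153 to 218 TPM (median 183) in Cd38-/- libraries, 1.68-fold higher (log2 fold change 0.75 ± 0.11 SE, limma q = 0.0613). Riiad1 was at 124, 127 and 122 TPM in Cd38+/- and at 170 to 240 TPM (median 204) in Cd38-/-, 1.62-fold higher (log2 0.70 ± 0.11 SE, q = 0.0734). Fam183b was at 326, 317 and 343 TPM in Cd38+/- and at 434 to 606 TPM (median 573) in Cd38-/-, with q = 0.0765. For all 3 the Cd38+/- libraries lay close together, far closer than the Cd38+/+ libraries did. Riiad1 shares exon sequence with Celf3 on the opposite strand, and the kit does not mark strand. Tmem212, Ccdc153 and Dynlrb2 were 1.64-, 1.63- and 1.59-fold higher, each with q = 0.0992, and Mlf1, a gene abundant in multiciliated cells, was 1.48-fold higher with q = 0.165. Foxj1 differed by 0.32 ± 0.27 SE on the log2 scale (limma q = 0.562). None of these q-values passed. The two-sided exact permutation test of log2(TPM + 1) gave p = 0.0119 for each of the 7, unadjusted, the smallest that 6 against 3 libraries allow. For groups without overlap this test lies at or near that limit, so it adds nothing to the lack of overlap.

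The other 6 without overlap came from several parts of the axoneme. Tekt4, a tektin, was at 62.7, 46.0 and 52.5 TPM in Cd38+/- and at 68.4 to 88.8 TPM (median 84.5) in Cd38-/-, 1.52-fold higher (limma q = 0.0916). Cfap126, which helps place basal bodies, was at 115, 109 and 131 TPM in Cd38+/- and at 144 to 206 TPM (median 196) in Cd38-/-, 1.55-fold higher (q = 0.0992). In both the lowest Cd38-/- library was library 4, a little above the highest Cd38+/- library. Tekt3 was 1.55-fold higher, Dnah7a, an inner arm heavy chain, 1.47-fold, Rsph9, a spoke head protein, 1.29-fold and Cfap36 1.24-fold, with q between 0.213 and 0.267. Dnah7a, Dnah7b and Dnah7c are near-identical copies, and so are Rsph3a and Rsph3b, so reads may have been split among them.

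By role, all 7 outer arm, all 7 radial spoke, all 13 central apparatus and all 3 nexin-dynein regulatory complex genes had log2 fold changes above 0, with medians of 0.33, 0.50, 0.50 and 0.61. Among the inner arm genes it was 10 of 11 (median 0.46), among tektins 4 of 5 (median 0.50) and among the 16 other Cfap genes 16 (median 0.55). The 10 members classed as broadly used, such as Spag7, Spag9 and Cfap20, had the lowest median among classes of more than 3 genes, 0.15, with 8 of 10 above 0. Cfap298 and Cfap300, dynein assembly factors, stand in that class, and Cfap157 in the central apparatus class, by placement on their names. The other Spag genes had 3 of 3 above 0 and a median of 0.12.

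Drc1, which anchors the nexin-dynein regulatory complex and lies on chromosome 5 as Cd38 does, had the largest fold of all members. It was at 133, 75.7 and 113 TPM in Cd38+/- and at 119 to 254 TPM (median 175) in Cd38-/-, 1.72-fold higher (log2 0.78 ± 0.22 SE, limma q = 0.230). Only Cd38-/- library 4 lay among the Cd38+/- libraries. Cfap69, Cfap73, Cfap99, Cfap299, Rsph10b and Dnah10 lie on chromosome 5 as well, and the part of position in these folds was not tested. Rsph1 was at 392, 256 and 312 TPM in Cd38+/- and at 368 to 574 TPM (median 511) in Cd38-/-, 1.53-fold higher with q = 0.184. The groups overlapped by the same library. Rsph14, a spoke protein, was 1.58-fold higher (q = 0.140) and Dnaic1, an outer arm intermediate chain, 1.33-fold (log2 0.41 ± 0.15 SE), neither past the threshold. Dnah9, an outer arm heavy chain, was at 24.2, 9.21 and 14.7 TPM in Cd38+/- and at 9.97 to 33.7 TPM (median 17.4) in Cd38-/-, a log2 difference of 0.21 ± 0.35 SE, and the groups overlapped.

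**Figure D2:**
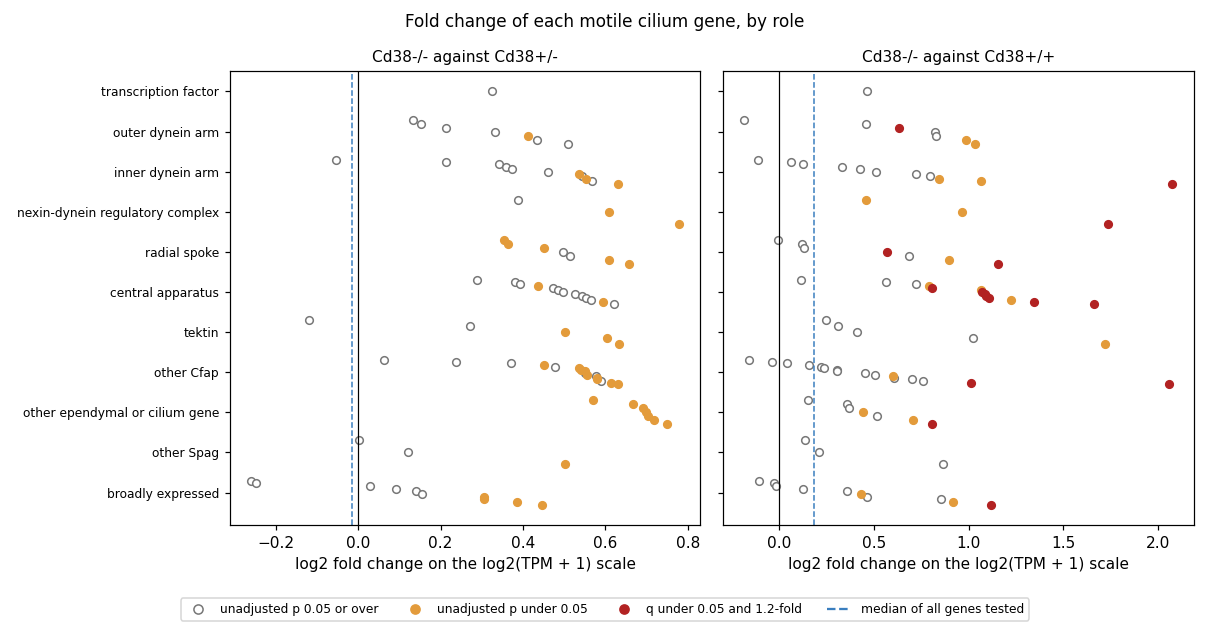
log2 fold change (x axis, log2(TPM + 1) scale) of each of the 83 genes by role (y axis) in Cd38-/- against Cd38+/- (left) and against Cd38+/+ (right). Open points have an unadjusted limma p of 0.05 or over, orange points one under 0.05, red points also pass q under 0.05 and 1.2-fold, and the dashed line is the median of all genes tested. On the left 79 of 83 lie above 0 and none is red, on the right 75 lie above 0 and 16 are red.

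Single libraries carried much of the spread. Cd38-/- library 4 was the lowest of the 6 for 68 members and library 1 the highest for 58. Without library 4, 11 members passed the threshold (13.3%), all higher in Cd38-/-, where 0.542% of all genes were called higher. In Cd38+/-, library 1, with the choroid plexus markers, was the highest for 71 members and library 2 the lowest for 72. Without Cd38+/- library 1, 56 members were higher at an unadjusted p under 0.05 and the median log2 fold change was 0.69, and without library 2 these values were 22 and 0.26. Of all 13652 genes, 1570 and 1042 were under that p in either direction in these fits, against 1381 with every library kept. No member passed the threshold in either case, and between 73 and 79 members lay above 0 whichever library was left out.

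Against Cd38+/+, 16 of the 83 genes passed the threshold and all 16 rose in Cd38-/- (19.3%), where the background was 8.15% of genes higher, 1.89% lower and 10.0% in either direction. With library quality weights all 16 calls were lost, and 1 gene of all those tested was called. The median log2 fold change of the members was 0.56 and that of all genes 0.19. At an unadjusted limma p under 0.05 there were 32 members, all higher (38.6%), with a background of 18.6% higher and 24.0% in either direction. For 11 members (13.3%) the libraries did not overlap, all higher in Cd38-/-, against a background of 9.44% higher and 3.26% lower. Median-ratio scaling moved the median of all genes to 0.07 and quantile normalization to 0.01, so the members' median was above it by 0.38 as deposited, 0.37 and 0.46. Of all genes called, 1113 were higher and 258 lower as deposited, 875 and 471 after median-ratio scaling and 638 and 613 after quantile normalization, and among the members 13 and 15 were then called, again all higher.

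Central apparatus genes gave 7 of the 16: Cfap47, Cfap54, Cfap65, Cfap69, Cfap70, Cfap221 and Spag6l. Their class had a median log2 fold change of 1.07, with all 13 members above 0. The others were the spoke head genes Rsph1 and Rsph4a, the arm genes Dnaic1 and Dnah14, Drc1, Cfap57, Cfap61, Cfap300 and 1700024G13Rik. Of the tektins and of the other Spag genes 0 passed.

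Cfap57, a protein tied to the inner dynein arms, was at 6.41, 11.9 and 26.0 TPM in Cd38+/+, at 53.8, 27.4 and 36.9 TPM in Cd38+/- and at 36.9 to 79.8 TPM (median 58.2) in Cd38-/-. Each Cd38+/+ library lay below all 9 others. It rose 4.15-fold in Cd38-/- (log2 2.05 ± 0.35 SE, limma q = 0.00775). Drc1 was at 20.3, 103 and 70.6 TPM in Cd38+/+ and rose 3.33-fold (log2 1.74 ± 0.40 SE, q = 0.0191). Cfap47 was at 2.02, 5.46 and 3.41 TPM in Cd38+/+ and at 7.85 to 23.6 TPM (median 12.1) in Cd38-/-, and rose 3.16-fold (q = 0.0180). Neither gene overlapped between these 2 genotypes.

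Dnah14 had the largest log2 difference, 2.07 ± 0.61 SE (limma q = 0.0393), but rested on an uneven group. It was at 1.27, 0.19 and 12.8 TPM in Cd38+/+ and at 9.33 to 18.01 TPM (median 13.1) in Cd38-/-, so that Cd38+/+ library 3 lay inside the Cd38-/- range. Its exons overlap Lbr on the opposite strand. Cfap300 was at 15.8, 18.7 and 35.9 TPM in Cd38+/+ and at 36.8 to 58.0 TPM (median 50.9) in Cd38-/-, and rose 2.17-fold (q = 0.0167). 1700024G13Rik was at 90.1, 86.4 and 149 TPM in Cd38+/+ and rose 1.75-fold (q = 0.0173). Of the 16, these last 2 and Cfap57 kept the call whichever library was left out, and the call of the other 13 was lost without at least 1 library, among them Cd38-/- library 2 for all 13.

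Cd38+/+ library 3 was the highest of its group for 58 members and library 1 the lowest for 53, and 51 members differed at least 2-fold among the 3. The median SD of log2(TPM + 1) over members was larger in Cd38+/+, at 0.59, than in the other genotypes, at 0.38 for Cd38+/- and 0.34 for Cd38-/-. Over all tested genes it was 0.54, 0.21 and 0.25, so the wide spread of Cd38+/+ was not particular to the members. Without library 3, 49 members passed (59.0%), where 21.3% of all genes were called higher. Without library 1, 10 passed (12.0%), where the share of all genes was larger, 14.4%. For Ccdc153, Fam183b and Dynlrb2 the Cd38+/+ range held that of Cd38-/- whole, Dynlrb2 lying at 397, 565 and 931 TPM in Cd38+/+ and at 583 to 927 TPM (median 781) in Cd38-/-. Tekt5 and Dnah8 were listed at 0 in Cd38+/+ library 1 and Dnah8 also in library 3. Markers of other cells also differed between these genotypes. Choroid plexus markers summed to 138 to 340 TPM in Cd38+/+ and 286 to 2101 TPM in Cd38-/- libraries. Past the threshold 4 of 10 (40%) were higher, against 8.15% of all genes. Of microglia markers 3 of 8 (37.5%) passed it too, although their sums were only 99.9 to 109 and 109 to 144 TPM. The part of these markers in the result was not tested.

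Between Cd38+/- and Cd38+/+ no member passed the threshold, with a background of 0% by limma with Storey q. At an unadjusted p under 0.05, 4 members were higher in Cd38+/- (4.82%), where the background was 10.3%, and 1 was lower, where it was 3.59%. The libraries did not overlap for 4 members that were higher (background 16.1%) and 2 that were lower (background 6.20%). By that p, the members higher were Cfap57 (2.84-fold), Cfap65, Spag5 and Spag9, the last a scaffold protein used by most cells. The libraries of Cfap65 overlapped, and the fourth higher member without overlap was Cfap47. Those lower without overlap were Riiad1 and Dnah7a, of which Riiad1 alone had an unadjusted limma p under 0.05. Riiad1 was at 158, 159 and 238 TPM in Cd38+/+ against 122 to 127 TPM in Cd38+/-. The median log2 fold change was 0.14 for the members and 0.21 for all genes, with 48 members above 0 and 35 below. In 1 fit of all 12 libraries 3 members were called (3.61%), where 12.8% of all genes were, and Benjamini-Hochberg adjustment called 0. Both comparisons with Cd38+/+ share its 3 libraries, and both comparisons of Cd38-/- share its 6. Whether the difference to Cd38-/- depends on which of the other genotypes it is measured against was not tested.

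**Figure D3:**
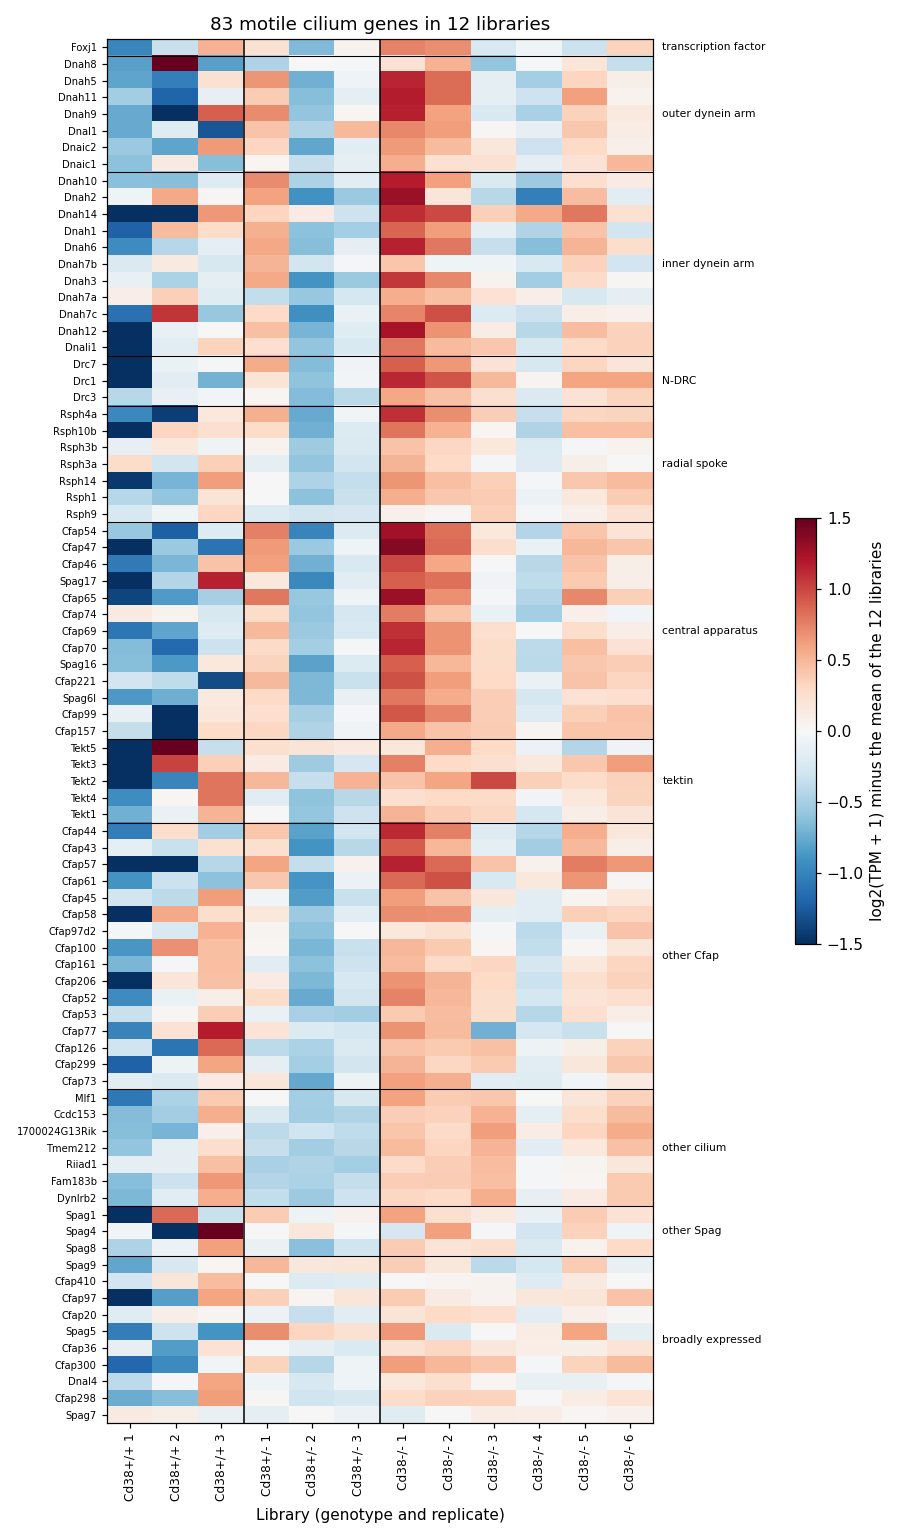
The 83 genes (rows, by role and within it from the longest to the shortest transcript) in the 12 libraries (columns), as log2(TPM + 1) minus the gene's mean over all libraries, with colours held at 1.5 on either side. Columns share a shade over most rows: Cd38-/- library 1 and Cd38+/- library 1 are red over the long genes, Cd38+/- library 2 is blue over most rows, and Cd38+/+ libraries vary most.

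The members moved together from library to library. Over the 6 Cd38-/- libraries the median Pearson's r of log2(TPM + 1) between pairs of members was 0.73 (quartiles 0.46 and 0.89). Without the 10 genes classed as broadly used it was 0.78, where pairs of all tested genes had a median of 0.15. Over the 9 Cd38+/- and Cd38-/- libraries the median for all 83 members was 0.78 against 0.14. All points share the libraries, so these are descriptions. Of the 83, 59 had r above 0.8 with the mean of the other members over the 9 libraries and 45 had r above 0.9, led by Cfap57 (0.990), Cfap100 (0.989) and Cfap99 (0.988). The 6 with r under 0.5 were Spag9, Dnah8, Tekt5, Spag4, Spag5 and Spag7, and Spag7, which most tissues express, was at -0.371. Among them are 3 of the broadly used genes and 2 of low level.

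Among genes outside the group, those most like its mean over the 9 libraries were Armc4, a docking factor of outer dynein arms, with r = 0.995, Gas8, a subunit of the nexin-dynein regulatory complex, with 0.994, and Cep128, a centriole protein, with 0.994. Eno4, Ccdc81, Ccdc65, Ttc30b, Lrrc46, Cdhr3 and Elmod1 followed, at 0.994 to 0.990. Of the 100 genes of highest r, 16 were members, whose own values enter that mean, and 14 came from a list of other motile cilium genes. Among the 13652 genes ranked, 83 were members and 64 were on that list.

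That list held 64 tested genes of assembly factors, docking proteins and regulators with other names. In Cd38-/- against Cd38+/-, 33 of the 64 (51.6%) were higher at an unadjusted p under 0.05 and 63 had a log2 fold change above 0, with a median of 0.49 and 0 called. Against Cd38+/+, where the background was 8.15% of genes called higher and 1.89% lower, 11 of 64 (17.2%) were called higher and 0 lower. Among them were Ccno and Gmnc, regulators of the making of many basal bodies. Ccno was at 0.29 TPM in Cd38+/+ library 1, listed at 0 in the other two, and at 2.36 to 4.04 TPM in Cd38-/- libraries (limma q = 0.00621). Gmnc was listed at 0 in 2 Cd38+/+ libraries and at 1.25 TPM in library 3, against 2.25 to 4.69 TPM in Cd38-/- (q = 0.0219). Both genes reached the mean of 1 TPM through the other genotypes, so their q-values are given as a description. Zeros were also common in Cd38+/+, whose libraries listed 785 to 1070 of all tested genes at 0, against 11 to 26 in the others. Of 39 genes of the primary cilium, mainly its transport machinery, 8 were higher in Cd38-/- than in Cd38+/- at an unadjusted p under 0.05 (20.5%) and the median was 0.21. Against Cd38+/+ 3 of the 39 were called higher (7.69%), Ift80, Ift52 and Ift81, a share near the 8.15% of all genes.

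Markers of ependymal cells outside the cilium were given the same way. All 9 were detected in every library, and their sum was 5864 to 11015 TPM in Cd38+/+, 5394 to 6895 TPM in Cd38+/- and 6518 to 9768 TPM in Cd38-/- libraries. In Cd38-/- against Cd38+/- all 9 had a log2 fold change above 0 (median 0.58), and 6 were higher at an unadjusted p under 0.05. Mia was at 239, 246 and 219 TPM in Cd38+/- and at 407, 376, 456, 318, 313 and 401 TPM in Cd38-/- libraries, without overlap. Of astrocyte markers 12 of 12 had a log2 fold change below 0 in the same comparison (median -0.33), and 7 were lower at an unadjusted p under 0.05, where the background was 4.39%. Their sum was 11998 to 17248 TPM in Cd38+/+, 18552 to 20330 TPM in Cd38+/- and 13530 to 18039 TPM in Cd38-/-. The astrocyte marker sums of Cd38-/- all lay below those of Cd38+/-, while the ependymal marker sums of Cd38-/- libraries 4 and 5 lay within the Cd38+/- range. The part of both lists in the result on the motile cilium genes was not tested.

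**Figure D4:**
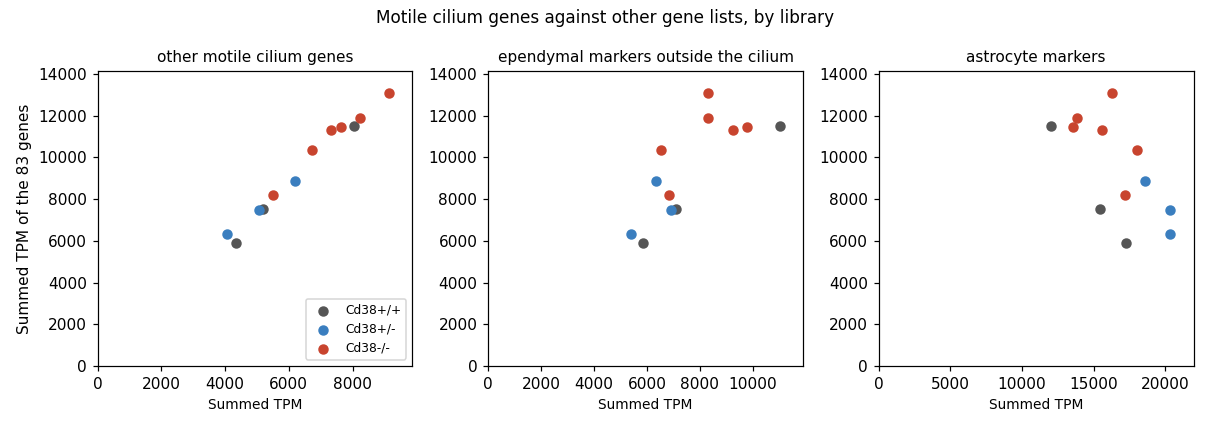
Summed TPM of the 83 genes (y axis) against the summed TPM of 3 other lists (x axes), 1 point per library, coloured by genotype. The points lie near a line for the other motile cilium genes (left), less so for ependymal markers outside the cilium (middle), and the Cd38+/- libraries have the highest astrocyte marker sums, 18552 to 20330 TPM (right).

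Within the 6 Cd38-/- libraries the summed TPM of the members (8182 to 13107) followed that of the other motile cilium genes, with Pearson's r = 0.985 (exact permutation p = 0.00139, adjusted 0.00556 over 4 lists) and Spearman's rho = 1 (exact p = 0.00278, adjusted 0.0111). Without the 2 libraries farthest from the median r was 0.968. With the ependymal markers outside the cilium r was 0.58 (exact permutation p = 0.224, adjusted 0.447) and rho 0.43 (exact p = 0.419, adjusted 0.419), and r was 0.71 without the 2 farthest libraries. Without Nnat, an abundant marker that neurons also express, r was 0.83 (exact permutation p = 0.0528, unadjusted). This removal was not planned, and no other marker was removed in the same way. With choroid plexus markers r was 0.30 (exact p = 0.524, adjusted 0.524) and rho 0.54 (exact p = 0.297, adjusted 0.396), and with astrocyte markers r was -0.48 (exact p = 0.338, adjusted 0.450) and rho -0.54 (exact p = 0.297, adjusted 0.396). Without the 2 farthest libraries the last 2 values of r were 0.92 and -0.53.

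Within a genotype, the deviations of the members went with transcript length. The longest members are the dynein heavy chains, which have low levels, so length was not separated from level or role. The same correlation was not computed over all genes. The Spearman correlation across the 83 genes between transcript length and a library's deviation from its genotype mean was 0.58 in Cd38+/- library 1 and 0.68, 0.56 and 0.64 in Cd38-/- libraries 1, 2 and 5. It was -0.49 and -0.29 in Cd38+/- libraries 2 and 3 and -0.76, -0.42 and -0.69 in Cd38-/- libraries 3, 4 and 6. In the Cd38+/+ libraries it ran from -0.25 to 0.13. Genes are not independent replicates, so these values describe the libraries. The dynein heavy chains took 2.53% of the TPM of the group in Cd38-/- library 1 and 1.31% in library 3, although the summed TPM of the 2 libraries was close, 13107 and 11465.

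In Cd38-/- against Cd38+/-, the 42 members with a longest transcript of up to 2874 bases had a median log2 fold change of 0.53 and a median SE of 0.16, and the 41 longer members 0.45 and 0.27. At an unadjusted p under 0.05 there were 31 and 6, and of the 13 genes without overlap 12 were among the shorter. The shorter and the longer members differed more in the spread between libraries than in the size of the difference. Removing each library's trend on transcript length left 0 members called, 38 higher at an unadjusted p under 0.05, and a median of 0.46. Of all 13632 genes in that fit, 1335 were under that p in either direction. Against Cd38+/+ the order was the other way, with medians of 0.46 for the shorter and 0.72 for the longer members, and 19 members (22.9%) were called with the length trend removed, all higher, where 9.04% of all genes were called higher.

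**Figure D5:**
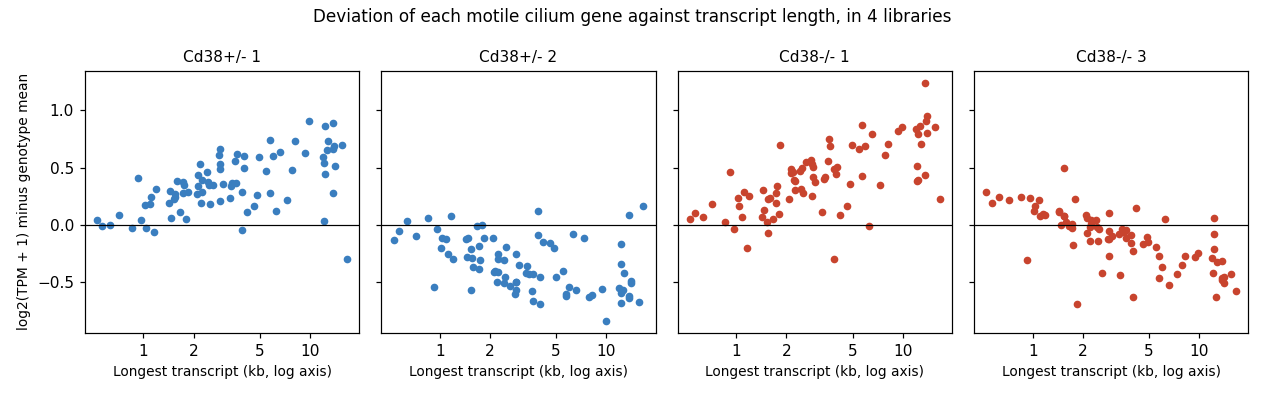
log2(TPM + 1) of each of the 83 genes minus the mean of its genotype (y axis) against its longest transcript in kb (x axis, log scale) in 4 libraries. The points climb with length in Cd38+/- library 1 and Cd38-/- library 1 and fall with length in Cd38+/- library 2 and Cd38-/- library 3.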

How the data were processed

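RNA of bead-isolated midbrain astrocytes was turned into cDNA with an ultra-low-input kit that keeps no strand, and both ends of each fragment were read. The authors depleted ribosomal RNA, whereas the labels name polyA RNA. Per the submitters' processing notes, Trim Galore 0.6.4, STAR 2.7.1a, RSEM 1.2.28 and DESeq2 1.36.0 were used with mm10, and the annotation release is not given in the sources used here. The deposited unit is TPM, made by the authors with RSEM, 1 column per library without pooling, rounded to 2 decimals and summing to about 1000000 in each library. TPM keeps no depth, so how many reads a value rests on is unknown, no counting interval is given, and a 0 sets no limit. Columns of the authors' own comparisons were not used.

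Genotypes came from the labels. Genes with a mean of at least 1 TPM were tested with limma 3.58.1 (lmFit, eBayes with a trend) under R 4.3.3 on log2(TPM + 1), with only the compared genotypes in each fit. Fold changes are on that scale, which understates the change of low genes. A call needed a Storey q under 0.05 together with a difference of 1.2-fold or more, the study's thresholds. The study's filter, a mean above 5 TPM in a genotype, was an alternative. Single genes were also compared by two-sided exact permutation tests, which cannot go below p = 0.0119 for 6 against 3 libraries and p = 0.1 for 3 against 3. Python 3.11.15 with scipy 1.17.1 was used. The fits were tested on simulated data that gave each gene the same spread in every genotype, so unequal spread was not tried.

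The members, the lists and the roles were chosen with earlier results of these data known. Named are the 8 single genes, the 3 most abundant members of each role, the 10 members of largest change and every called member in each comparison, members near the level limit, the leading genes of other lists, the 10 genes most like the group and Cd38. Other genes named as examples were chosen after their values were seen. For all 83 members, GENCODE vM21 (GRCm38) gave the position and the transcript lengths. Exons of 31 members overlap another gene, 29 of them on the opposite strand. Alternatives were pseudocounts of 0.1 and 5, no filter, the study's filter, Benjamini-Hochberg adjustment, no trend, library quality weights (statmod 1.5.0), 2 scalings, all libraries in 1 fit, the replicate number as a block, each library left out, and, added after seeing the data, removal of a transcript length trend (a spline with 4 degrees of freedom). The removal of Nnat from the ependymal markers was not planned beforehand. Motifs were searched in RefSeq promoters of GRCm38.p6. Proteins were not analysed here.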

Additional observations from a re-analysis of the deposited data

Results flagged for a closer look

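In the 6 Cd38-/- libraries, the level of each member and the summed level of each marker list were examined for a library that lay far from the rest, 94 sets of 6 values in all, of which chance would mark about 1 in 20. No motile cilium gene had such a library. The neuron markers did. Cd38-/- library 6 held a summed 126 TPM of neuron markers against 40.7 to 52.0 TPM in the other 5 libraries of its genotype. The members summed to 11299 TPM in that library, within the 8182 to 13107 TPM of the genotype.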

How the results depend on the processing

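In Cd38-/- against Cd38+/-, the count of members called was 0 as reported, 60 with library quality weights, which called 3629 of all genes (26.6%), and 0 to 11 with a library left out. Members higher at an unadjusted p under 0.05 were 37 as reported, 64 with library quality weights and 22 in 1 fit of all 12 libraries. They were 60 with the replicate block, and 22 to 56 with a library left out. Of all 13652 genes, 1381 were under that p in either direction as reported, 5125 with library quality weights, 554 in 1 fit and 1898 with the block. In the fits that gave 22 and 56 members with a library left out, 1042 and 1570 of all genes were. Against Cd38+/+ the 16 called members became 7 with Benjamini-Hochberg adjustment (5.24% of all genes) and 0 with library quality weights (1 of all genes). They became 0 with the replicate block (0 of all genes) and 3 to 49 with a library left out (3.15% and 28.2% of all genes in those fits). The 32 at an unadjusted p under 0.05 became 18 with library quality weights and 22 to 54 with a library left out. Of all genes, 3280 were under that p in either direction as reported and 1398 with library quality weights. In the fits that gave 22 and 54 members, 3850 and 4589 of all genes were. Between Cd38+/- and Cd38+/+ the 0 calls became 3 in 1 fit of all 12 libraries, where 12.8% of all genes were called. The 4 higher at an unadjusted p under 0.05 became 9 there and 0 to 14 with a library left out. Of all genes, 1892 were under that p in either direction as reported and 3483 in the 1 fit. In the fits that gave 0 and 14 members, 943 and 2852 of all genes were. The cause was not tested. The count of members with a log2 fold change above 0 was within 1.5 times of that reported under every alternative in all 3 comparisons, and the relation to ependymal markers outside the cilium stayed positive (r from 0.34 to 0.83).

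The replicate numbers are shared by the genotypes but do not pair the libraries: of 9 same-numbered pairs, deviations from the genotype means correlated at -0.27 to 0.41, with 1 pair over 0.1. The block is thus an alternative only.

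Of 1334 values of single named members under alternatives, 1161 kept direction and side of the threshold, 119 lost a call, 45 gained one and 9 changed sign. In Cd38-/- against Cd38+/-, Spag4 went to -0.0047 with a pseudocount of 0.1 and lay between -0.111 and 0.0708 with a library left out. Tekt2 went to -0.0567 with library quality weights and lay between -0.0113 and 0.422 with a library left out. Dnah9 lay between -0.11 and 0.54, the lowest without Cd38+/- library 2. In Cd38+/- against Cd38+/+, Spag1 (0.74) went to -0.13 without Cd38+/+ library 1. Where 1 library of a group is left out, the remaining spread is assumed alike in the genotypes. With 3 libraries in 2 of the genotypes and no read depth in the unit, the precision rests on the number of libraries alone.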
